A study of Canis lupus familiaris with 11 samples.

Results

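LMNA knockout (KO) cells were compared with wild-type (WT) cells after both had been compressed. The comparison holds 6 of the 11 RNA sequencing libraries of the study, 3 of compressed KO cells and 3 of compressed WT cells, chosen by genotype and treatment as given in the sample titles. It is described across all genes, 13560 of which carried enough counts to be tested. The remaining 5 libraries, 2 of KO control cells and 3 of WT control cells, were never compressed. They show the same genotypes at rest. The study asks how an epithelial sheet answers to compression and what lamin A contributes.

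The cells are MDCKII, an epithelial line from dog kidney whose cells join into a tight and polarised sheet. The KO cells are a derivative of this line that carries a knockout of LMNA, and both kinds grew in the same serum-containing medium. In all 4 groups the sheet was grown for 3 to 4 d. Compressed KO and compressed WT cells were then pressed laterally and left to recover for 2 h before RNA was taken, while KO control and WT control cells were collected without compression. The labels do not give how the knockout was made, whether the KO line is 1 clone, how the sheet was compressed, or whether replicates were separate cultures. The effect of the missing gene and the history of the KO line can therefore not be told apart, and the spread behind each p-value is that of these samples and may be technical. In bulk RNA, fewer cells with a transcript and less transcript per cell can also not be told apart.

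LMNA encodes lamin A and lamin C, intermediate filament proteins that form a meshwork under the inner nuclear membrane together with the B-type lamins. The meshwork stiffens the nucleus, anchors heterochromatin at the nuclear edge and connects, through the SUN and nesprin proteins, to the cytoskeleton. Lamin A and C rise in stiff tissues and with differentiation, and loss of LMNA makes nuclei soft and easily deformed.

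The 6 compressed libraries held 10420214 to 16371946 counts, and a count per 1e6 counts of the scaled library is written CPM. A library of each genotype stood apart from its group. On the first principal component of the 6 libraries, which took 40.3% of the variance, KO compressed replicate 2 lay at 31.81 and KO compressed replicates 1 and 3 at -37.28 and -36.97, while WT compressed replicate 3 lay at 39.16 and WT compressed replicates 1 and 2 at 7.49 and -4.20. The second component, with 26.1% of the variance, placed all KO libraries below 0 and all WT libraries above 0. Of 14 epithelial and renal tubule markers, 13 exceeded 1 CPM in at least 1 compressed library, among them the keratin KRT8 and the adhesion molecule EPCAM, while the keratin KRT7 was at 0 in each. Most markers of other cell types stayed at or below 1 CPM in each compressed library, namely 12 of 14 for fibroblasts and smooth muscle, 8 of 10 for endothelium, 9 of 12 for immune cells, and 12 of 13 for neurons and skeletal muscle. The exceptions included the smooth muscle myosin MYH11, at 20.2 to 20.9 CPM in compressed KO and 20.8 to 22.2 CPM in compressed WT libraries. The summed neuronal and muscle markers, nearly all of it the microtubule protein MAP2, stood at 43.0 to 64.2 CPM in compressed KO and 75.2 to 98.8 CPM in compressed WT libraries, without overlap, and MAP2 had an edgeR adjusted p of 0.159. The sums overlapped between compressed KO and compressed WT libraries for fibroblasts and smooth muscle (23.9 to 27.1 and 25.2 to 26.8 CPM), endothelium (14.8 to 42.1 and 16.2 to 26.6 CPM) and immune cells (8.68 to 12.7 and 5.15 to 8.72 CPM). Their part in the gene differences was not tested.

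LMNA RNA stood at 35.5, 25.5 and 43.6 CPM in compressed KO cells, against 841, 829 and 751 CPM in compressed WT cells. The groups were far apart, and every KO library still held LMNA reads. The log2 fold change was -4.53 ± 0.25 (n = 3 each). Here and below, ± is an approximate standard error derived from the edgeR test on the fit to all 11 libraries. It is the size of the log2 fold change divided by the square root of the F statistic. The quasi-likelihood test of edgeR, adjusted over all genes by Benjamini-Hochberg, gave LMNA an adjusted p of 1.19e-06. On chromosome 7 of CanFam3.1 LMNA spans bases 41699201 to 41719658, minus strand. Its nearest tested neighbours, SLC25A44 and MEX3A, differed by -0.15 and -0.06 on the log2 scale and did not pass the test. MEX3A averaged only 0.25 CPM in compressed KO and 0.28 CPM in compressed WT cells, so its value rests on few reads.

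Of 29 tested members of the nuclear lamina and envelope list, LMNA alone passed the edgeR test (DESeq2 called 2), and the list median was -0.04 on the log2 scale, beside -0.01 over all genes tested. Lamin B1 (LMNB1) stood at 377, 482 and 449 CPM in compressed KO cells, against 513, 489 and 532 CPM in compressed WT cells. Its log2 fold change of -0.23 ± 0.15 had an edgeR adjusted p of 0.612. The lamin B receptor LBR, which tethers heterochromatin, differed by -0.19 ± 0.17, and the linker proteins SUN1 and SUN2 by -0.13 ± 0.17 and 0.13 ± 0.16, with edgeR adjusted p-values of 0.744, 0.844 and 0.827. These 4 genes were named after their values were seen. No member of the envelope repair, nuclear pore or heterochromatin lists passed the test, beside 0.789% of all genes tested. These lists had 13, 27 and 29 tested members and medians of 0.11, -0.22 and -0.14. Of the 27 nuclear pore genes, 24 had a negative value, with NUP210 at -1.36 ± 0.42 (edgeR adjusted p 0.191).

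Across the genome, 107 genes passed an edgeR adjusted p of 0.05, which is 0.789% of those tested. Of these, 69 were higher in compressed KO cells (0.509%) and 38 were lower (0.28%). An unadjusted p under 0.05 was found for 1530 genes, where 678 would be expected from the number of tests alone, and for 2880 genes without KO compressed replicate 2 and 1060 without WT compressed replicate 3. The lower genes changed by more and lay at lower levels. Their median log2 fold change was -3.47, with 19 of 38 at 3 or beyond in size, against a median of 1.55 and 8 of 69 for the higher genes. The mean level was taken in the group with more RNA, which was WT for the lower and KO for the higher genes. It had a median of 8.14 CPM over the lower genes and 42.9 CPM over the higher genes. At levels of 2 to under 10 CPM, 6 of 2434 tested genes were higher (0.247%) and 22 lower (0.904%) in KO cells. At 1000 CPM and over, 4 of 89 tested genes were higher (4.49%) and 0 lower. Protein-coding genes made up 103 of the 107, and 4 were transcripts that the authors had assembled.

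**Figure D1:**
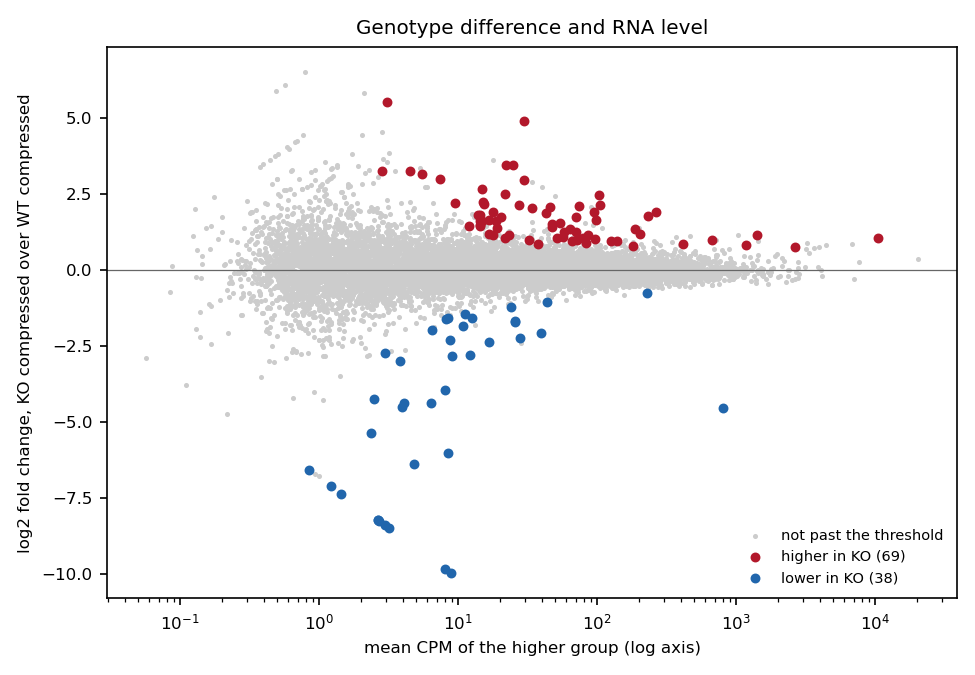
Log2 fold change of each of 13560 tested genes, KO compressed over WT compressed, against the mean CPM of the higher group on a log axis. Red points are the 69 genes higher and blue points the 38 genes lower in compressed KO cells, and grey points did not pass the edgeR test; the blue points reach further from 0 and lie at lower levels than most red points.

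In none of the 107 genes did the 3 KO and 3 WT libraries overlap, and this was so for 15.7% of all genes tested, 7.92% with KO above and 7.82% with KO below WT. Many calls were nevertheless lost when 1 compressed library was left out, and such a fit also has fewer libraries to test with. Without KO compressed replicates 1, 2 and 3 the losses were 50, 1 and 62. Without WT compressed replicates 1, 2 and 3 they were 63, 68 and 62. In each fit that left out 1 compressed library, 32 of the 107 passed again, 16 of them higher and 16 lower. The other 75 were lost without at least 1 library, at a highest adjusted p of 0.0575 to 0.262. Leaving out KO compressed replicate 2 gave 349 calls, and leaving out WT compressed replicate 3 gave 49, against 144 without both. Without KO compressed replicates 1 or 3 the counts were 60 and 50, and without WT compressed replicates 1 or 2 they were 46 and 39. The control libraries enter through the shared spread, and without WT control replicate 1 there were 189 calls. All 107 kept their sign in each of these fits. Where a call was lost, the highest edgeR adjusted p from leaving out a compressed library is given beside it.

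The deepest losses were of transcripts that compressed KO cells did not hold at a detectable level. Of the called genes, 10 had 0 reads in all 3 KO libraries, and 7 of them averaged at least 2 CPM in WT cells. No called gene had 0 reads in all WT libraries. A fold against 0 is given as a lower bound at a floor of 3 counts over the 3 KO libraries, which is 0.0732 CPM and covers counting error only.

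POU3F3, a POU-domain transcription factor of the developing nephron in mice and of the brain, had 0 reads in each of the 3 compressed KO libraries, against 7.69, 8.05 and 8.18 CPM in compressed WT cells. It was at least 109-fold lower, with an edgeR adjusted p of 0.0001. FOLH1, the surface carboxypeptidase also known as prostate-specific membrane antigen, likewise had 0 reads in compressed KO cells, against 11.5, 5.00 and 10.1 CPM in compressed WT cells. It was at least 121-fold lower, with an edgeR adjusted p of 0.000251. The WT values lay close together for POU3F3 and spread more widely for FOLH1.

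GATA4, a zinc finger transcription factor of heart and endoderm that the file names through its protein match, had 0 reads in compressed KO cells, against 3.23, 2.20 and 4.14 CPM in compressed WT cells. Also at 0 in compressed KO cells were GPRASP1, a sorting protein of G protein-coupled receptors, ZFP82, a zinc finger protein, and CTNND2, a catenin of the delta family. These 4 genes were at least 36.2-fold to 43.5-fold lower, with edgeR adjusted p-values of 0.00204 to 0.00585. The calls of these 4 genes, POU3F3 and FOLH1 held without each compressed library in turn. ZFP82 shares its symbol with another row of the table that has no reads, so its counts are uncertain.

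A further group stood just above 0 in KO cells. NEK6, a mitotic kinase, stood at 0.299, 0 and 0.0619 CPM in compressed KO cells, against 8.69, 7.03 and 9.59 CPM in compressed WT cells. ARMCX5 stood at 0.0747, 0 and 0.0619 CPM in compressed KO cells, against 4.15, 5.42 and 4.74 CPM in compressed WT cells. SETBP1, which binds the SET protein, stood at 0.224, 0 and 0.247 CPM in compressed KO cells, against 3.69, 4.15 and 4.04 CPM in compressed WT cells. The WT libraries were all at least several times above the KO libraries, although the KO values rest on few reads. The log2 fold changes were -6.01 ± 0.82, -6.38 ± 0.82 and -4.49 ± 0.61, with edgeR adjusted p-values of 0.00295, 0.00252 and 0.00268, and each held without any compressed library. OSBPL10, an oxysterol-binding protein, and LONRF2 fell by 5.36 and 4.38 on the log2 scale. Their calls were lost without 1 KO library each, at edgeR adjusted p-values of 0.0591 and 0.0575.

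**Figure D2:**
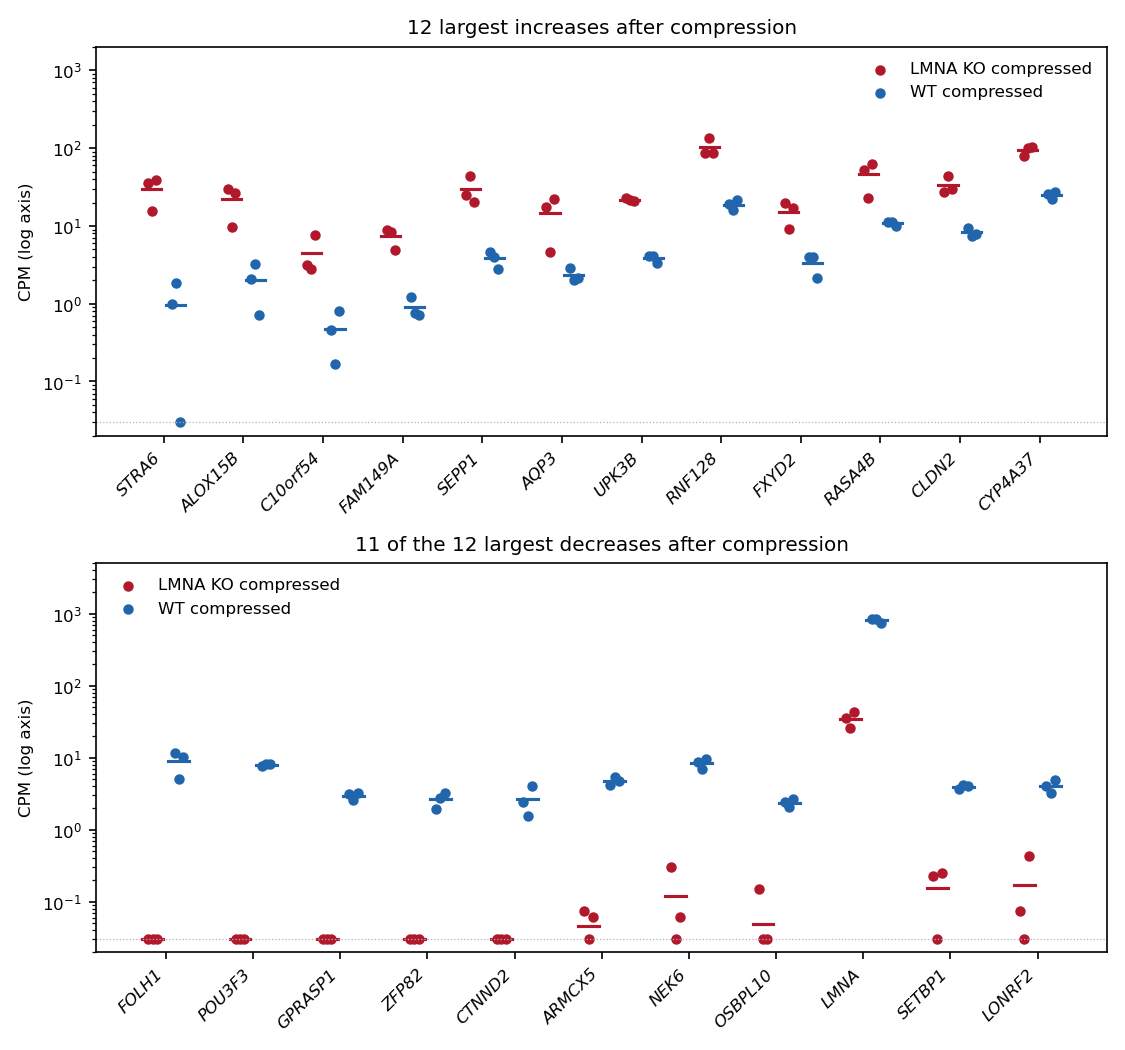
CPM on a log axis in each of the 3 KO compressed (red, left) and 3 WT compressed (blue, right) libraries for the 12 largest increases (upper panel) and 11 of the 12 largest decreases (lower panel); each point is a library, short lines are group means, and libraries with 0 reads are drawn on the dotted line. The red and blue points do not overlap for any of these genes, and 5 of the lower genes have all 3 KO points on the dotted line.

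Among called genes named in the gene name column, the largest increase was in STRA6, the membrane receptor through which cells take up retinol. It stood at 35.2, 15.6 and 38.5 CPM in compressed KO cells, against 1.00, 1.86 and 0 CPM in compressed WT cells. RBP4, the plasma carrier that delivers retinol to STRA6, stood at 115, 99.5 and 99.6 CPM in compressed KO cells, against 18.2, 25.2 and 28.6 CPM in compressed WT cells. Both separated the genotypes in every library. STRA6 rose by 4.90 ± 0.60 and RBP4 by 2.13 ± 0.30 on the log2 scale, with edgeR adjusted p-values of 0.00162 and 0.00381, and both held without any compressed library. The third called member of the xenobiotic and retinoid list was the sulfotransferase SULT1A1, at 1.13 ± 0.19 with an edgeR adjusted p of 0.0134, lost at 0.0865 without a library. The list had 23 tested members, of which 3 rose and 0 fell, beside 0.509% and 0.28% of all genes tested. Its median was 0.37 against -0.01 over all genes.

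RNF128, a membrane-bound ubiquitin ligase, stood at 87.7, 136 and 88.0 CPM in compressed KO cells, against 18.9, 16.1 and 21.4 CPM in compressed WT cells. UPK3B, a uroplakin of the urothelial surface, stood at 22.8, 21.4 and 20.98 CPM in compressed KO cells, against 4.08, 4.15 and 3.33 CPM in compressed WT cells. CLDN2, the claudin that makes tight junctions permeable to cations and water, stood at 27.3, 44.5 and 29.9 CPM in compressed KO cells, against 9.46, 7.54 and 7.87 CPM in compressed WT cells. In all 3 genes the lowest KO library lay well above the highest WT library. Log2 fold changes were 2.46 ± 0.20, 2.49 ± 0.28 and 2.03 ± 0.27, with edgeR adjusted p-values of 8.39e-05, 0.00125 and 0.00252, and the calls held without any compressed library.

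The channel and pump genes were more variable. AQP3, the water and glycerol channel of the collecting duct, stood at 17.6, 4.65 and 22.03 CPM in compressed KO cells, against 2.85, 2.03 and 2.12 CPM in compressed WT cells. FXYD2, a regulatory subunit of the sodium pump, stood at 19.6, 9.12 and 16.9 CPM in compressed KO cells, against 4.00, 3.98 and 2.12 CPM in compressed WT cells. In both genes KO compressed replicate 2 was the lowest KO library. AQP3 rose by 2.66 ± 0.47 and FXYD2 by 2.17 ± 0.46 on the log2 scale, with edgeR adjusted p-values of 0.0155 and 0.0459. Each call was lost in 5 of the 6 fits without a compressed library, at adjusted p-values of up to 0.0996 and 0.238. These were the only called members among 19 tested genes of renal water, ion and osmolyte transport, beside 0.789% of all genes tested. The median of that list was 0.25.

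Several other large increases spread widely between the KO libraries. ALOX15B, a lipoxygenase that acts on arachidonic acid, stood at 29.7, 9.74 and 26.4 CPM in compressed KO cells, against 2.08, 3.22 and 0.707 CPM in compressed WT cells. Its log2 fold change of 3.43 ± 0.67 had an edgeR adjusted p of 0.03, lost at up to 0.166. SEPP1, selenoprotein P, which carries selenium in plasma, stood at 24.9, 44.0 and 20.1 CPM in compressed KO cells, against 4.69, 3.98 and 2.83 CPM in compressed WT cells. It rose by 2.94 ± 0.49 with an edgeR adjusted p of 0.0111, lost at up to 0.0845. C10orf54, an immune checkpoint receptor, and FAM149A rose by 3.25 and 3.00 on the log2 scale, with edgeR adjusted p-values of 0.0165 and 0.0488, lost at up to 0.0918 and 0.228. The CYP4A fatty acid hydroxylases were steadier. CYP4A37 stood at 80.5, 99.3 and 104 CPM in compressed KO cells, against 25.9, 22.2 and 27.1 CPM in compressed WT cells. CYP4A37 and the neighbouring CYP4A11 rose by 1.92 ± 0.25 and 2.12 ± 0.27, each with an edgeR adjusted p of 0.00204, and both held without any compressed library. RASA4B, a Ras GTPase-activating protein, rose by 2.08 ± 0.30 with an edgeR adjusted p of 0.00432 and also held.

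Among abundant transcripts the changes were smaller. NQO1, a quinone reductase of the antioxidant response, stood at 2516, 2541 and 2849 CPM in compressed KO cells, against 1630, 1381 and 1640 CPM in compressed WT cells. TRPA1, a cation channel opened by electrophiles, stood at 1234, 1660 and 1306 CPM in compressed KO cells, against 629, 637 and 643 CPM in compressed WT cells. CP, the copper-carrying ferroxidase ceruloplasmin, stood at 216, 294 and 282 CPM in compressed KO cells, against 64.8, 71.2 and 77.5 CPM in compressed WT cells. Every KO library exceeded every WT library for these 3 genes, and the WT values of TRPA1 were nearly equal. NQO1 rose by 0.77 ± 0.12, TRPA1 by 1.14 ± 0.14 and CP by 1.89 ± 0.30 on the log2 scale, with edgeR adjusted p-values of 0.00905, 0.00162 and 0.00905. TRPA1 held without any compressed library, while NQO1 and CP were lost at 0.0676 and 0.06. CP shares its symbol with another, weakly counted row, so its level is uncertain. The interleukin-33 receptor IL1RL1, the lactonase PON2 and TMEFF2 rose by 0.81, 0.83 and 1.77, of which only TMEFF2 held without each compressed library. IL1RL1 was lost at up to 0.196 and PON2 at up to 0.17.

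NQO1 was the 1 called gene of 31 tested in the antioxidant and glutathione list, beside 0.789% of all genes tested. The median of the list was 0.14, and 23 of the 31 had positive values. In DESeq2, 6 members of this list passed. In the sterol and fatty acid list, FADS2, a fatty acid desaturase, was the 1 called gene of 29 at 0.96 ± 0.17 with an edgeR adjusted p of 0.0185, lost at up to 0.128. The same share of all genes tested stands beside that list, whose median was 0.27, with 25 of 29 values positive.

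The most abundant decreases after LMNA were in DDX21, a nucleolar RNA helicase, SRPX2, a secreted sushi-domain protein, PEG10, an imprinted gene derived from a retrotransposon, WNT7A, a secreted Wnt ligand, and EDIL3, a secreted integrin-binding protein. PEG10 stood at 6.42, 13.1 and 8.66 CPM in compressed KO cells, against 44.8, 37.3 and 35.6 CPM in compressed WT cells. EDIL3 stood at 2.24, 11.6 and 4.21 CPM in compressed KO cells, against 24.2, 29.1 and 30.1 CPM in compressed WT cells. Both groups were clear of each other in these genes, with KO compressed replicate 2 the highest of the KO libraries. They fell by 2.07 ± 0.35 and 2.23 ± 0.42, and DDX21, SRPX2 and WNT7A by 0.77 ± 0.16, 1.06 ± 0.19 and 1.24 ± 0.23. Their edgeR adjusted p-values were 0.0115, 0.0216, 0.0447, 0.0194 and 0.024 for PEG10, EDIL3, DDX21, SRPX2 and WNT7A. All 5 calls were lost without some compressed library, at up to 0.0746, 0.116, 0.224, 0.123 and 0.111 in the same order. DDX21 also shares its symbol with another row.

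Kidney transcription factors moved in both directions. Of 25 tested members, 1 rose and 2 fell, beside 0.509% and 0.28% of all genes tested, with a median of 0.10. Besides POU3F3, the LIM homeobox factor LHX1, which patterns the early nephron, stood at 1.94, 1.93 and 1.11 CPM in compressed KO cells, against 6.38, 6.18 and 6.86 CPM in compressed WT cells. HNF4A, a nuclear receptor that drives proximal tubule and liver genes, stood at 20.01, 22.7 and 27.2 CPM in compressed KO cells, against 10.2, 12.6 and 8.88 CPM in compressed WT cells. The libraries of the genotypes did not overlap in either gene. LHX1 fell by 1.97 ± 0.35 and HNF4A rose by 1.14 ± 0.24, with edgeR adjusted p-values of 0.0179 and 0.0447, lost at up to 0.0832 and 0.209.

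The junction and matrix lists below held 1 or 2 called members each, beside 0.789% of all genes tested. At that share lists of this size would hold few or no calls. N-cadherin (CDH2), the cadherin of mesenchymal and neural cells that MDCK cells hold at a low level, stood at 0.971, 2.54 and 1.73 CPM in compressed KO cells, against 8.69, 11.5 and 16.1 CPM in compressed WT cells. It fell by 2.80 ± 0.36 with an edgeR adjusted p of 0.00231, held without any compressed library, and was the 1 called gene of 25 in the adherens junction and polarity list (median 0.01). Without KO compressed replicate 2, 4 members of that list passed. E-cadherin (CDH1), named after its values were seen, stood at 216, 498 and 441 CPM in compressed KO cells, against 492, 485 and 496 CPM in compressed WT cells. KO compressed replicate 1 was the low library, and the edgeR adjusted p was 0.62. CLDN2 was the 1 called gene of 22 in the tight junction list, whose median was 0.04. In the basement membrane and collagen list COL5A1, a chain of the fibril-regulating collagen V, was the 1 called gene of 27, falling by 1.72 ± 0.35 with an edgeR adjusted p of 0.0355, lost at up to 0.157. Of 22 secreted matrix and protease genes, fibulin-1 (FBLN1) and the proteoglycan biglycan (BGN) rose by 1.06 ± 0.20 and 1.74 ± 0.37 and 0 fell. That list had a median of 0.39, and 18 of 22 values were positive. The calls of FBLN1 and BGN, at edgeR adjusted p-values of 0.0225 and 0.0459, were lost at up to 0.158 and 0.24. Without KO compressed replicate 2, which held the lowest KO value of both genes, BGN reached an adjusted p of 0.00238.

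The EGF, ephrin and Wnt lists likewise held 1 or 2 called members each, beside 0.789% of all genes tested. EGF, the growth factor precursor made in the distal tubule, stood at 129, 273 and 161 CPM in compressed KO cells, against 87.3, 68.1 and 66.5 CPM in compressed WT cells. It rose by 1.34 ± 0.26 with an edgeR adjusted p of 0.0258, lost at up to 0.165, and was the 1 called gene of 21 in the EGF receptor and ERK list (median 0.05). Ephrin-B2 (EFNB2), a membrane ligand of Eph receptors, stood at 14.6, 12.7 and 16.8 CPM in compressed KO cells, against 5.69, 4.57 and 4.34 CPM in compressed WT cells. It rose by 1.59 ± 0.29 with an edgeR adjusted p of 0.0183, lost at up to 0.104, as the 1 called gene of 12. Of 21 Wnt pathway genes, the transcription factor TCF7 rose by 0.87 ± 0.16 with an edgeR adjusted p of 0.0183, lost at up to 0.0996, and WNT7A fell, with a median of -0.05.

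**Figure D3:**
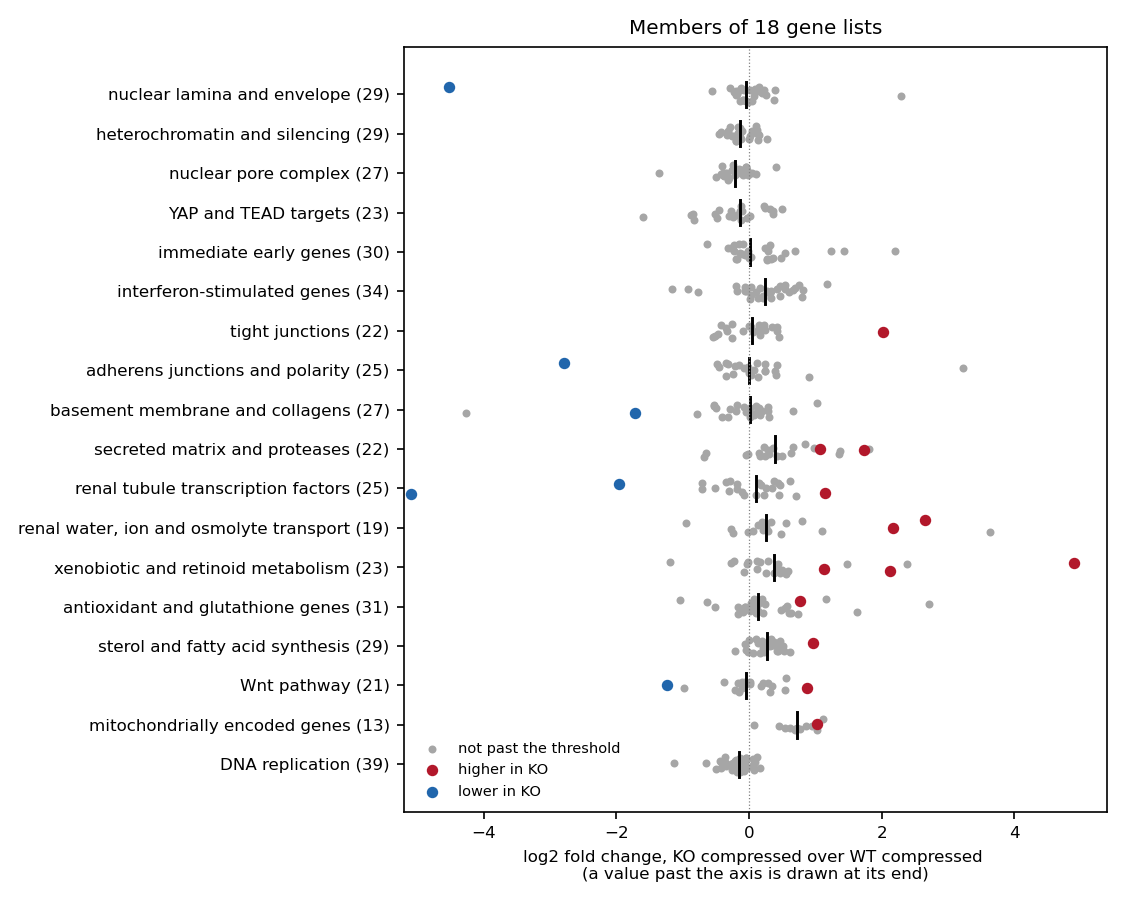
Log2 fold change, KO compressed over WT compressed, of each tested member of 18 gene lists, with the number of tested members in parentheses. Red points rose and blue points fell past the edgeR test, grey points did not pass it, black bars are list medians, and a value past the axis is drawn at its end; most lists centre near 0, and the mitochondrially encoded genes lie to the right with a median of 0.72.

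Of 39 pathway lists, 25 held no called gene. These 25 lists had 649 tested members, and their medians ran from -0.22 to 0.31 on the log2 scale. Over all genes tested 0.789% were called, and at that share lists of this size would hold few or no calls. The absence of a call is therefore no result about a pathway. They included the YAP and TEAD targets, SRF and actin genes, immediate early genes, interferon-stimulated genes, p53 targets, desmosomes and keratins, integrins, cilium genes, mitosis and DNA replication. DESeq2 called 16 members in 10 of the 25 lists, and edgeR without KO compressed replicate 2 called 12 in 9 of them. Tissue factor (F3), a YAP target that starts coagulation, came closest. It stood at 85.3, 85.3 and 92.1 CPM in compressed KO cells, against 149, 135 and 187 CPM in compressed WT cells, a log2 fold change of -0.84 ± 0.18 with an edgeR adjusted p of 0.0507. Cyclin D1 (CCND1) differed by -1.14 ± 0.27 with an edgeR adjusted p of 0.0832, and the immediate early receptor NR4A1 by 2.20 ± 0.55 with 0.104. In the DNA replication list 32 of 39 values were negative, with a median of -0.15, and in the mitosis list 29 of 35 were negative. In the interferon list 25 of 34 were positive with a median of 0.25, while the same list had a median of 0.55 in KO control over WT control cells.

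Of the 39 pathway lists, the mitochondrially encoded genes had the median farthest from 0. Their share of all counts was 3.30, 2.90 and 4.74% in compressed KO libraries, against 2.10, 2.07 and 2.22% in compressed WT libraries, with no overlap. All 13 protein-coding members had positive values, and the median was 0.72. In 11 of them every KO library lay above every WT library, as in 7.92% of all genes tested. KO compressed replicate 3 was the highest library for most members, so the members are not separate replicates. COX1, which encodes the catalytic subunit of cytochrome c oxidase and was matched in the table as MT-CO1, stood at 9092, 8458 and 13710 CPM in compressed KO cells, against 4639, 4340 and 6332 CPM in compressed WT cells. It was the 1 member past the test, at 1.03 ± 0.22 with an edgeR adjusted p of 0.0447, lost at up to 0.227. A further 6 members had edgeR adjusted p-values of 0.05 to 0.1. Without KO compressed replicate 2, 8 members passed, and DESeq2 called 8 with all libraries.

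Without compression the order was not the same. The mitochondrial share was 2.65 and 2.60% in KO control libraries, against 3.84, 2.71 and 2.61% in WT control libraries, and the list median was -0.20. For COX1 the log2 fold change was -0.27 at rest, and the difference between the genotype effects had an unadjusted p of 0.00143 and an adjusted p of 0.939 by edgeR. The 47 tested respiratory chain genes of the nucleus had a median of 0.05 after compression and 0 called members.

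**Figure D4:**
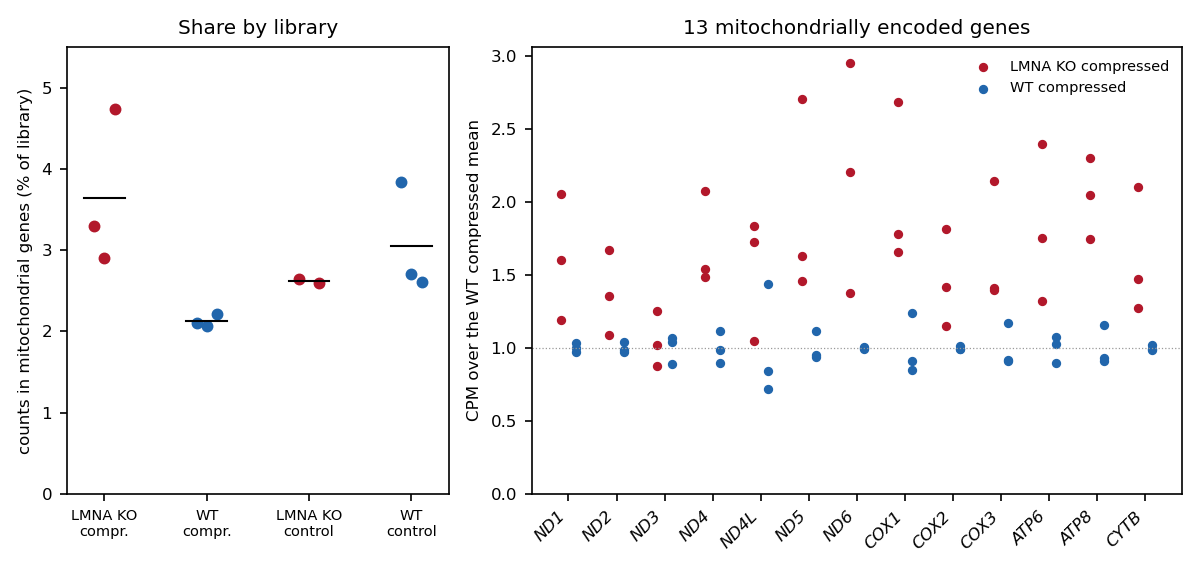
Left, share of each library's counts in mitochondrially encoded genes (%), with a bar at the group mean, for compressed KO, compressed WT, KO control and WT control cells. Right, CPM of each of 13 mitochondrially encoded genes divided by the mean of the 3 WT compressed libraries, for KO compressed (red) and WT compressed (blue) libraries; the red points lie above the blue ones for 11 of the 13 genes.

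KO and WT control cells gave the same genotype comparison in libraries that share none of the 6 above. There 46 of 13560 genes passed the edgeR test (0.339%), of which 18 were higher (0.133%) and 28 lower (0.206%) in KO cells. Both comparisons called 38 genes in the same direction, 16 higher and 22 lower, which is 35.5% of the calls after compression and 82.6% of the calls at rest. The calls at rest numbered 6 and 8 without KO control replicates 1 or 2, 21 and 16 without WT control replicates 2 or 3, 24 without WT compressed replicate 1 and 106 without KO compressed replicate 2. The shared calls then ranged from 6 to 53. Of the 107 genes called after compression, 104 had the same sign at rest, 66 of 69 higher and 38 of 38 lower. Over the lower genes, the median log2 fold change was -3.47 after compression and -2.93 at rest. For the higher genes the medians were 1.55 after compression and 0.86 at rest. All these genes were chosen by their values after compression, which favours larger medians there. The medians therefore do not compare the size of the genotype effects with and without compression.

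POU3F3, GATA4, GPRASP1 and ZFP82 had 0 reads in both KO control libraries too, and FOLH1 and CTNND2 had 1 read in 1 of them. UPK3B stood at 18.2 and 21.3 CPM in KO control cells, against 1.81, 4.29 and 2.69 CPM in WT control cells. CLDN2 stood at 30.0 and 31.6 CPM in KO control cells, against 4.49, 8.72 and 7.76 CPM in WT control cells. These transcripts thus separated the genotypes with and without compression, and the log2 fold changes at rest were 2.74 ± 0.30 and 2.13 ± 0.29, with edgeR adjusted p-values of 0.00101 and 0.00598.

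Some calls had no counterpart at rest. Of the higher genes 15, and of the lower genes 3, had a log2 fold change under 0.5 in size in control cells. ALOX15B stood at 10.2 and 17.1 CPM in KO control cells, against 25.2, 4.70 and 6.66 CPM in WT control cells. EFNB2 stood at 14.9 and 13.3 CPM in KO control cells, against 20.2, 9.46 and 12.1 CPM in WT control cells. LHX1 stood at 2.04 and 2.55 CPM in KO control cells, against 2.60, 3.22 and 1.95 CPM in WT control cells. The genotypes overlapped in all 3 genes, whose values at rest were 0.17 ± 0.65, 0.02 ± 0.30 and -0.17 ± 0.38 on the log2 scale. The test of the difference between the genotype effects called 0 genes by edgeR. An unadjusted p under 0.05 was found for 650 genes, where 678 would be expected from the number of tests alone, and the smallest adjusted p was 0.939. This count rested on single libraries, with 2272 genes without KO compressed replicate 2, 1862 without both libraries that stand apart and 249 without KO control replicate 1. These 3 fits and DESeq2 called 0 genes at the adjusted threshold, while edgeR without WT control replicate 1 and limma without a filter called 1 gene each. ALOX15B, EFNB2 and LHX1 had unadjusted p-values of 0.0041, 0.0022 and 0.0036 in that test. With all libraries, no gene passed the edgeR test for a genotype difference that changed with compression.

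**Figure D5:**
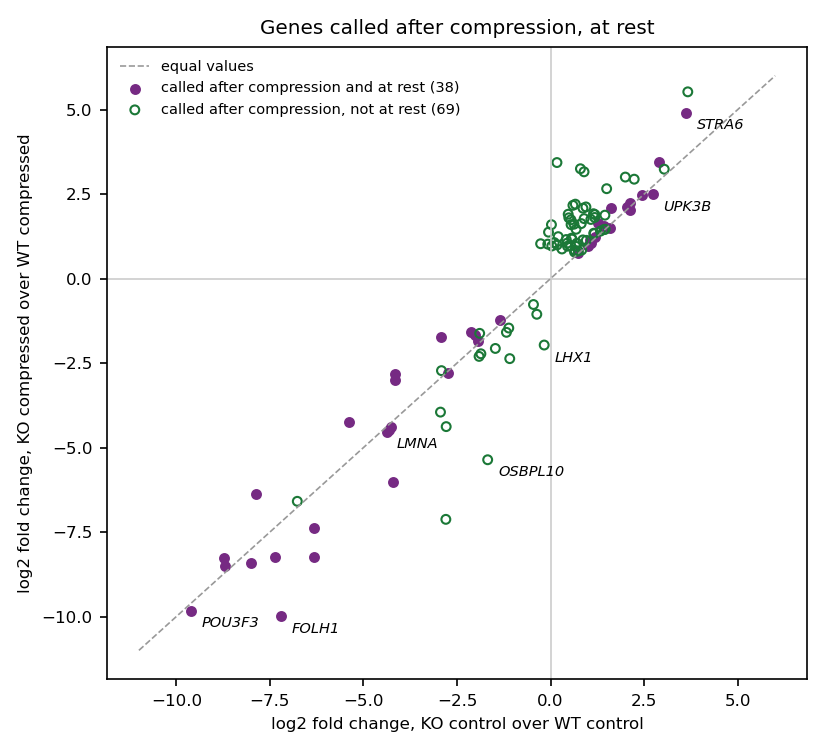
Log2 fold change of KO over WT in compressed cells (vertical) against the same in control cells (horizontal) for the 107 genes called after compression, with a dashed line of equal values. Filled purple points are the 38 genes also called at rest and open green points the 69 that were not; 104 points have the same sign on both axes, and fitted values of genes with 0 reads in a group depend on the prior count.

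Calls were spread over the genome. Of 40 chromosomes listed, 35 held at least 1 of 106 called genes, and chromosome medians apart from the mitochondrial one ran from -0.13 to 0.07 on the log2 scale. In 12 pairs the called genes lay within 1000000 bases of each other, 9 of them in the same direction and 3 in opposite directions. How many such pairs any 106 genes would give was not tested. Adjacent tested genes made up 6 of these pairs. UPK3B and RASA4B, 30553 bases apart on chromosome 6, both rose, as did IFI16 and MNDA, interferon-inducible genes of the same family, 6793 bases apart on chromosome 38. ARMCX5 and GPRASP1, which lie 39446 bases apart on the X chromosome, both fell, as did GPD1L and OSBPL10, 90716 bases apart on chromosome 23. ZNF17 and ZNF304 on chromosome 1 both fell, and their annotated spans overlap. FBLN2 and WNT7A on chromosome 20, 135922 bases apart, went in opposite directions. The calls of IFI16, ZNF17, ZNF304 and FBLN2 were lost without some compressed library, at edgeR adjusted p-values of up to 0.132, 0.132, 0.06 and 0.0845. No source used here gives whether the library kit marks strand, so reads of overlapping genes can not be told apart. The X chromosome held 9 called genes of 457 tested, or 1.97%, beside 0.789% over all genes tested.

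The annotation splits PDZK1, SON and ITSN1 over several rows. PDZK1, a scaffold of brush border transporters, had 1 called row at 5.52 ± 0.92 and another tested row at 0.96, with edgeR adjusted p-values of 0.0115 and 0.0886. SON and ITSN1, neighbours on chromosome 31, each had a called row, at 3.45 and 3.16, beside a tested row of the same symbol at -0.08 and -0.40. The called rows of PDZK1 and ITSN1 were lost without some compressed library, at edgeR adjusted p-values of up to 0.0665 and 0.165, while that of SON held. The called rows may not stand for the whole genes, and their values are uncertain.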

How the data were processed

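Polyadenylated RNA of 11 MDCKII samples was sequenced after capture on oligo(dT) beads and random-hexamer priming, per the labels' protocols. The submitters' processing notes name HISAT2 version 2.0.5, CASAVA and FastQC, with the genome build CanFam3.1; no source used here gives the gene counter or annotation release. For 26178 genes the authors deposited whole-number counts, without normalization, and a table of FPKM values, which served for alternatives only. Groups and replicate numbers came from the sample titles.

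Counts were fitted in R 4.3.3 with edgeR 4.0.16 over all 11 libraries as 4 groups, with TMM scaling and the filterByExpr filter, which kept 13560 genes. The quasi-likelihood fit left 7 residual degrees of freedom. Contrasts gave KO compressed against WT compressed, KO control against WT control, and the difference between both. All p-values are two-sided with Benjamini-Hochberg adjustment over all genes and a threshold of 0.05. Pooling the spread over groups assumes that they vary alike. CPM are TMM-scaled, and at 10420214 to 17999623 counts per library, genes under about 1 CPM rest on few reads. Replicates of a group were never identical and differed beyond sampling noise, with a chi-square per gene of at least 5.86. The scripts were tested on simulated data.

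Symbols came from the table, 15029 from its gene name column and 5356 from its protein match, and 5793 rows had none. The 44 gene lists held 1319 entries, and 95.5% matched a row. The comparison, the lists and the tests were chosen with earlier results of these data known. Named genes are LMNA, the 12 largest increases and decreases past the threshold with a symbol in the name column, no overlap and a mean of 2 CPM or more in the higher group, the 6 most abundant in each direction, up to 4 called members of each list (or 2 members given as values where none was called) and genes at 0 reads in a whole group. Not every gene the rule takes is printed, and 1 of the largest decreases is not reported here. Paired, split and adjacent loci and the values at rest were chosen after their values were seen. Genes outside the rule that are named beside it include CYP4A11, PDZK1, SON and ITSN1 and the members of neighbouring pairs. They also include LMNB1, LBR, SUN1, SUN2, CDH1, APOBEC1, GGT1, GM2A, PCK1 and ABCA1, named after their values were seen.

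As alternatives, libraries were scaled by RLE or by their size alone, genes were left unfiltered or kept at 1 CPM in 3 libraries, and the fit was made robust, tested against a log2 fold change of 1, restricted to the compressed libraries, given a replicate term, or repeated without each library. DESeq2 1.42.0 was run on the counts, and limma 3.58.1 on log2(FPKM + 1) and log2(FPKM + 0.1) where FPKM reached 1 in 2 libraries or more. Leaving out the 2 libraries that stand apart was added after the data were seen. No genome sequence was used here.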

Additional observations from a re-analysis of the deposited data

Results flagged for a closer look

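IFT88, a transport protein of the primary cilium, was flagged among the genes named by the rule. It was the 1 of them in which every KO library lay on one side of WT after compression and on the other at rest. It stood at 7.24, 7.63 and 7.49 CPM in compressed KO cells, against 12.2, 9.15 and 13.3 CPM in compressed WT cells, and at 7.55 and 8.42 CPM in KO control cells, against 4.17, 6.37 and 6.53 CPM in WT control cells. The log2 fold change was -0.63 ± 0.25 after compression and 0.48 ± 0.28 at rest, with edgeR adjusted p-values of 0.338 and 0.741. The difference between these effects was -1.12 on the log2 scale, with an unadjusted p of 0.0101 and an adjusted p of 0.939 by edgeR, so it did not pass over all genes. Genes outside the rule reversed in the same way at smaller unadjusted p-values by edgeR. Among them were MTRF1 at 0.000587 and DFNA5 at 0.00114, named after their values were seen. IFT88 was thus not alone, and the share of all genes that reversed was not counted.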

How the results depend on the processing

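The 107 calls after compression numbered 371 in DESeq2, with all 107 among them, 201 with no low count filter, 64 in the compressed libraries alone, 59, 50 and 57 in limma on log2(FPKM + 1), log2(FPKM + 0.1) and log2(FPKM + 1) without a filter, and 25 at a minimum log2 fold change of 1. The share of calls that were higher in KO cells was 64.5%, against 28% at that minimum, 50.9% in limma without a filter and 74.6% in limma with it. Without 1 library each, the calls ranged from 39 to 349, including 189 without WT control replicate 1. Library size alone called 98, of which 95 were shared, and RLE scaling, the stricter filter and the robust fit stayed within 1.5 times of 107. Every call tested kept its sign in each setting. At rest the 46 calls became 127 in DESeq2, 90 without a filter, 10 at the minimum fold, 16, 8 and 21 in the limma fits in the order above, 111 without the 2 libraries that stand apart, and 6 to 106 without 1 library each. The 38 genes called in both became 80, 60, 9, 12, 7 and 14 in the first 6 of these settings and 6 to 53 without 1 library each. For the difference between the genotype effects, limma without a filter called 1 gene and leaving out a library called 0 to 1. A block for the replicate number (replicate block) gave 53 calls after compression, all among the 107, 15 at rest and 13 in both. Deviations of same-numbered compressed KO and WT libraries correlated at -0.047, -0.361 and -0.403. KO compressed replicate 3 with WT compressed replicate 2 reached 0.426, and KO compressed replicate 2 with WT compressed replicate 3 reached 0.306. Whether same-numbered samples shared a culture or a day was not tested. LMNA passed in each setting, at -4.72 to -4.35 without 1 library each. Of the values of named genes under these settings, 2239 kept their direction and their side of the threshold, 281 no longer passed, 47 newly passed and 4 reversed. The reversed values were MYH11 at 0.0015 without the 2 libraries that stand apart, and PDGFRA at -0.04, -0.19 and -0.01 without KO compressed replicate 1, KO compressed replicate 3 or WT compressed replicate 3, against 0.35 without KO compressed replicate 2; the cause was not tested. Depth limits genes under about 1 CPM, and values for genes near 0 reads rest on a handful of counts.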

Other observations

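Some of the calls that held without each compressed library were in genes outside the pathway lists, named here after their values were seen. APOBEC1, the enzyme that edits apolipoprotein B messenger RNA, stood at 93.6, 105 and 95.7 CPM in compressed KO cells, against 30.4, 29.3 and 34.0 CPM in compressed WT cells. GGT1, a brush border enzyme that breaks down glutathione, stood at 86.3, 55.4 and 79.5 CPM in compressed KO cells, against 18.8, 23.6 and 9.49 CPM in compressed WT cells. GM2A, a lysosomal activator of ganglioside breakdown, stood at 216, 183 and 207 CPM in compressed KO cells, against 91.9, 92.4 and 85.4 CPM in compressed WT cells. None of these overlapped between the genotypes. They rose by 1.65 ± 0.20, 2.09 ± 0.29 and 1.17 ± 0.17 on the log2 scale, with edgeR adjusted p-values of 0.00156, 0.00336 and 0.00414, and held without each compressed library.

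Among the lower genes, GPD1L, a relative of glycerol-3-phosphate dehydrogenase, stood at 8.66, 7.72 and 7.74 CPM in compressed KO cells, against 26.1, 25.2 and 26.0 CPM in compressed WT cells. The replicates lay close together in each genotype. GPD1L fell by 1.68 ± 0.19, with an edgeR adjusted p of 0.0011, and held without each compressed library. The metabolic genes PCK1, the entry enzyme of gluconeogenesis, and ABCA1, the cholesterol exporter, rose by 2.20 ± 0.46 and 1.81 ± 0.33, with edgeR adjusted p-values of 0.0447 and 0.0204. Both calls were lost without some compressed library, at up to 0.173 and 0.0875.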
